A study of Homo sapiens with 40 samples.

Results

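Proteoglycans and hyaluronan turnover were examined through 10 genes that encode cell surface proteoglycans, a matrix proteoglycan and proteins that make, bind or degrade hyaluronan: CEMIP, HAS2, CD44, GPC1, GPC3, GPC4, GPC6, SDC1, SDC2 and LUM. The genes were taken by name from 56568 gene names in 2 transcript tables, and all 10 were found. The cells were HepaRG (HPR 116), a human hepatic line that forms a mixed culture of hepatocyte-like and primitive biliary cells. Differentiated cultures were exposed for 6 days, from day 8 to day 14 after plating, in Williams' E medium with 2% fetal bovine serum and 1% DMSO, which the control cultures also received. The 40 libraries formed 8 groups of 5. There was 1 control group, which both tables hold with identical values. PCB 126, a dioxin-like polychlorinated biphenyl, was given at 100 pM, 10 nM and 1 µM. Glyphosate, a herbicide, was given at doses of 10 µg/L, 1 mg/L or 0.1 g/L. Roundup (Grand Travaux +) is a glyphosate-based formulation and was given at 10 µg/L. HepaRG is a single line, and no label states that the 5 libraries of a group came from separate cultures, so the p-values measure only the spread between these libraries.

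Proteoglycans are proteins that carry long sulfated sugar chains. Glypicans are held on the cell surface by a lipid anchor and syndecans by a transmembrane segment, and through their heparan sulfate chains both bind growth factors, Wnts and lipoproteins. In the liver, syndecan 1 takes part in the clearance of remnant lipoproteins. Hyaluronan is a large sugar chain without a protein core, made at the plasma membrane by the HAS enzymes, bound by CD44 and cut by hyaluronidases, by CEMIP and by TMEM2. PCB 126 activates the aryl hydrocarbon receptor, a transcription factor whose DNA element has the core GCGTG.

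The promoters of CEMIP, the member that rose, and GPC6, the member that fell, are shown to set that core beside the 2 genes. The bases before the gene start (for CEMIP, the 223 that lie outside the gene as the files place it) were read from RefSeq sequence (GRCh38.p14), with GCGTG on either strand in capitals, for CEMIP at chr15:80779120-80779342 and for GPC6 at chr13:93226557-93226806, both on the plus strand.
CEMIP: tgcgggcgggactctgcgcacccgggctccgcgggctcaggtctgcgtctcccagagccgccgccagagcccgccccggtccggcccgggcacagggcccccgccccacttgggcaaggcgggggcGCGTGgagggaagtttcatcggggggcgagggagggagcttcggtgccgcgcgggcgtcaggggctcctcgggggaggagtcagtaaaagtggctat
GPC6: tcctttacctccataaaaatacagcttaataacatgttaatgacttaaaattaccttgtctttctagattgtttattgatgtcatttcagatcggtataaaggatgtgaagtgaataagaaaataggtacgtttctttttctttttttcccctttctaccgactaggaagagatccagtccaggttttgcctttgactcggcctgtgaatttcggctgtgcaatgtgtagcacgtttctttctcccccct
CEMIP held 1 match within the 250 bases before its start and GPC6 held 0. Of the other members with an entry, GPC4 held 4 matches, CD44 and GPC1 held 0, and SDC1 held 1 and 0 at its 2 listed starts. The motif was present in 11313 of 35116 windows of this length (32.2%). A match describes the letters only.

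Values are FPKM (fragments per kilobase of transcript per unit of depth), summed over the transcripts of each gene, so levels can be compared between genes. FPKM totals ran from 255292 to 513059 per library, and 71169 to 118592 transcripts were above 0. Read counts per gene were not used, so the intervals cover the spread between libraries and no counting error. In 9 of the 38 libraries named in the study's alignment summary, more than 30% of read pairs aligned at several places: 1 control library, 2 each at 10 nM PCB 126, 1 µM PCB 126 and Roundup, and 1 each at 10 µg/L and 0.1 g/L glyphosate. These 9 libraries are referred to as multiply aligned. The exposure itself was plain in most of the target genes of the aryl hydrocarbon receptor that were checked. CYP1A1 was 6.61 and TIPARP 3.21 higher on the log2 scale at 1 µM PCB 126 than in controls (limma adjusted p = 7.44e-05 and 4.8e-05). CYP1A2 (6.16) and CYP1B1 (2.51) also passed (limma adjusted p = 2.29e-05 and 0.00797), but AHRR did not (0.21, limma adjusted p = 0.736). All 12 hepatocyte markers averaged 1 FPKM or more in at least 1 group. Of the 10 biliary and progenitor markers 5 did so, and EPCAM was among those under 0.1 FPKM.

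In control cells SDC1 (111 ± 22.5 FPKM; mean ± SD, n = 5 here and throughout) and GPC1 (96.5 ± 27.9) were the most abundant of the 10 genes. They were followed by CD44 (60.6 ± 19.7), LUM (50.2 ± 14.0), SDC2 (21.4 ± 4.47), CEMIP (13.1 ± 4.17), GPC6 (7.77 ± 1.77) and GPC4 (3.66 ± 0.948). HAS2 lay at 0.0292 ± 0.0119 FPKM and GPC3 was listed at 0 in all 5 control libraries. The ranges of neighbours in this order overlapped for SDC1 and GPC1, GPC1 and CD44, CD44 and LUM, SDC2 and CEMIP, and CEMIP and GPC6. SDC1 exceeded GPC1 in 4 of 5 libraries and CD44 exceeded LUM in 4 of 5, while each other gene exceeded the next in 5 of 5. Control replicate 5, one of the multiply aligned libraries, had the lowest level in its group of each of the 8 genes from SDC1 to GPC4.

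Of the 10 genes, 7 had an FPKM variance above 1 over the libraries of each table and entered the fit, while GPC4, HAS2 and GPC3 did not. At 1 µM PCB 126, CEMIP rose and GPC6 fell, and the other 5 genes tested did not pass an adjusted p of 0.05 (limma on log2(FPKM + 1), Benjamini-Hochberg over 9755 genes). The study had already listed CEMIP, GPC6 and LUM in its enriched glycosaminoglycan category from these same PCB 126 libraries. A count of members called is therefore not independent of that result. The count was 2 of 7 members where 182 of 9755 genes (1.87%) were called, 63 higher (0.646%) and 119 lower (1.22%). This balance shifted to 510 higher against 613 lower with quantile normalization, and to 271 higher against 227 lower in a linear model with a library-size term. At 10 nM no member passed where 20 genes did (0.205%), 14 of them higher (0.144%) and 6 lower (0.0615%). At an unadjusted p under 0.05 there were 3 members, beside 4.85% of all genes, and at 1 µM 4 members, beside 13.6%. At 100 pM limma called 0 genes (0%), with 116 genes (1.19%) but no member at an unadjusted p under 0.05. The median log2 difference of the 7 members at 1 µM was -0.21, beside -0.26 for all genes tested, with 2 members above 0 and 5 below. Across the PCB 126 groups an F-test again called CEMIP and GPC6, among 136 genes (1.39%). A linear trend over the 4 dose steps called the same pair, among 361 genes (3.7%). Exact permutation tests of single members were also run, 100 in all. Their p-values are unadjusted, two-sided, and cannot fall below 0.00794 with 5 libraries against 5.

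**Figure D1:**
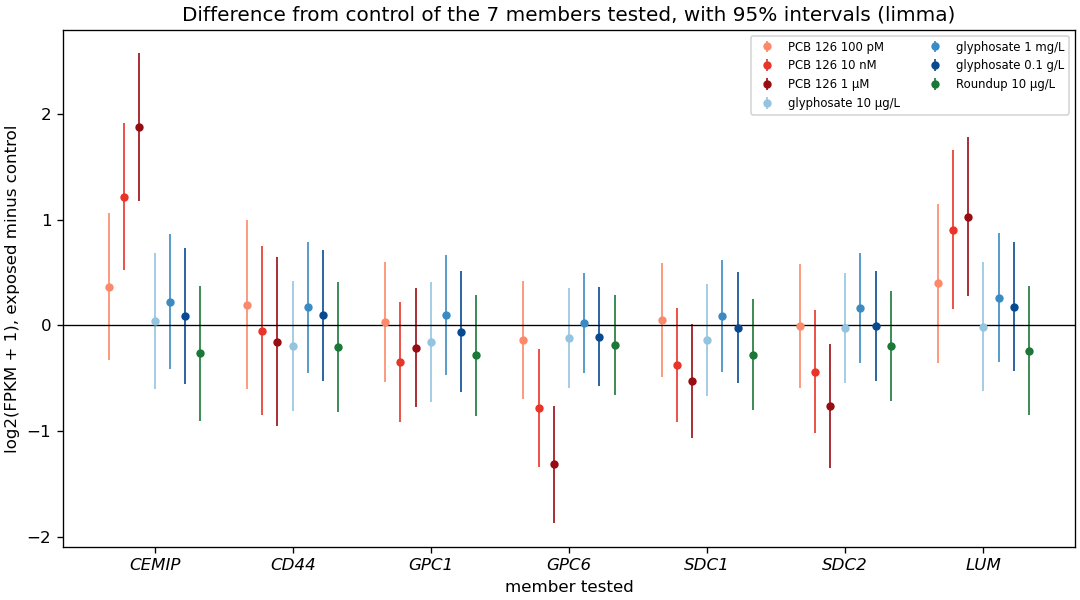
Difference in log2(FPKM + 1) between each exposed group and control for the 7 members tested, with 95% intervals from limma (vertical axis, log2 units; reds PCB 126, blues glyphosate, green Roundup). At 1 µM PCB 126 CEMIP lay at 1.88 and GPC6 at -1.32, whereas the intervals of every herbicide group included 0.

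CEMIP (chr15:80779343-80951776, plus strand, GRCh38) encodes a protein that binds hyaluronan and promotes its depolymerisation. Its level rose with the dose of PCB 126. The 5 control libraries, in replicate order, gave 15.3, 16.3, 16.4, 10.3 and 7.11 FPKM. At 100 pM the values were 13.1, 20.7, 12.2, 15.4 and 23.5 FPKM, which overlapped the controls widely. At 10 nM they were 53.4, 44.2, 12.8, 21.99 and 38.86 FPKM, so that 4 libraries lay above every control and replicate 3, a multiply aligned library, lay among them. At 1 µM they were 32.1, 67.9, 58.2, 61.6 and 35.0 FPKM, all above the highest control, a separation seen in 229 of 9755 genes (2.35%). The group mean went from 13.1 ± 4.17 to 16.97 ± 4.91, 34.2 ± 16.6 and 51.0 ± 16.3 FPKM.

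On the log2(FPKM + 1) scale CEMIP was 1.88 higher at 1 µM than in controls (SE 0.34, 95% interval 1.18 to 2.58, limma adjusted p = 0.00245, exact permutation p = 0.00794). At 10 nM the difference was 1.22 (0.52 to 1.92), with a limma adjusted p of 0.230 and an exact permutation p of 0.0317. Without 10 nM replicate 3 the 10 nM difference was 1.52 and passed (limma adjusted p = 0.0230). At 100 pM it was 0.37 (-0.33 to 1.07, limma adjusted p = 1). The steps from 100 pM to 10 nM (0.85, exact permutation p = 0.0873) and from 10 nM to 1 µM (0.66, exact permutation p = 0.175) were within the spread of the libraries. The trend was 0.65 per dose step (SE 0.107, limma adjusted p = 0.000582). Without the multiply aligned libraries the 1 µM difference was 2.05 (limma adjusted p = 0.00086).

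**Figure D2:**
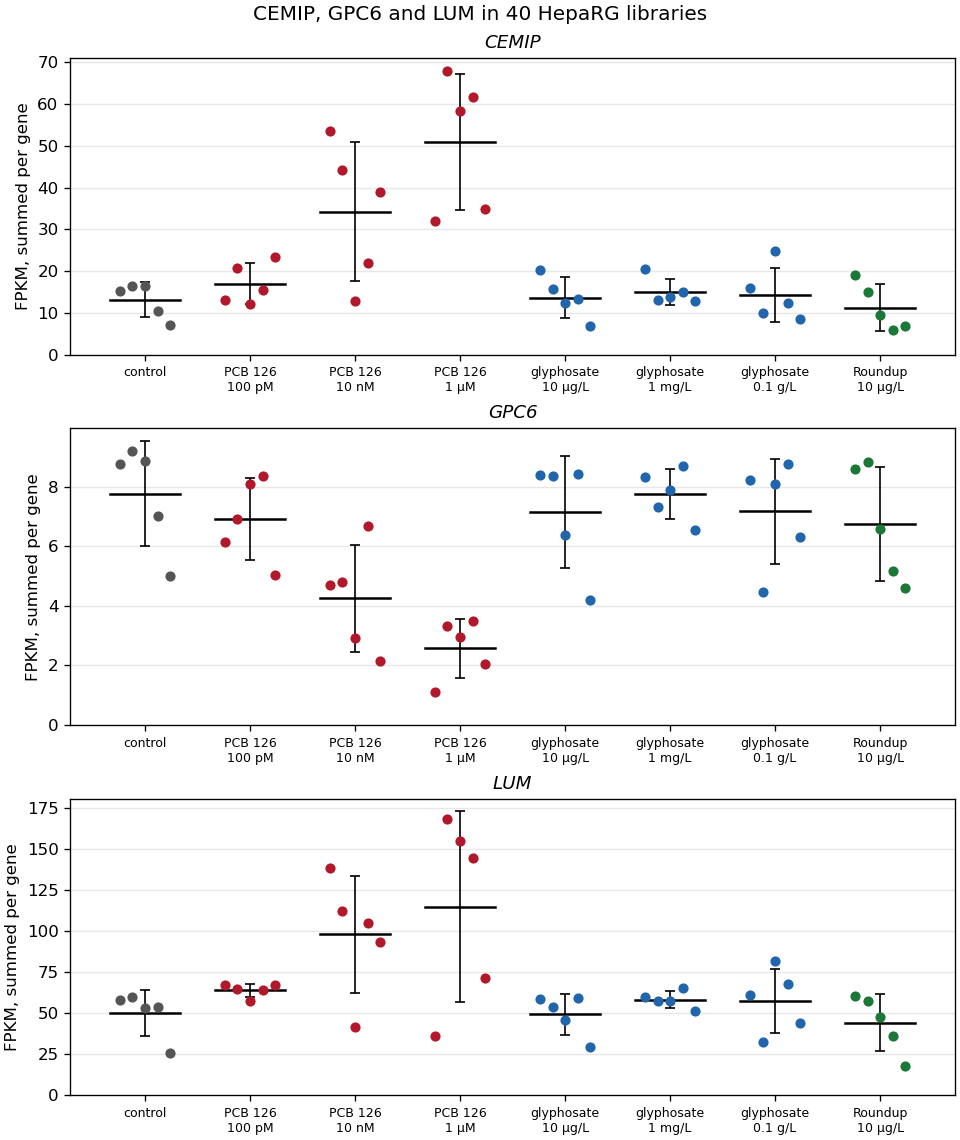
FPKM of CEMIP, GPC6 and LUM in the 40 libraries, by group (vertical axis, FPKM summed per gene, from 0; points are libraries, bars the mean, whiskers the SD). All 1 µM PCB 126 values lay above the controls for CEMIP and below them for GPC6, while LUM at 1 µM ran from 35.8 to 168 FPKM and overlapped the controls.

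Both main transcripts of CEMIP were higher on average at 1 µM. ENST00000220244, with 29 exons and 80.1% of the gene's FPKM over all libraries, had a mean of 10.7 FPKM in controls (4.90 to 15.8) and 34.7 FPKM at 1 µM (19.2 to 50.3). ENST00000356249, with 30 exons, had a mean of 1.88 FPKM in controls (0 to 4.72) and 14.8 FPKM at 1 µM (8.82 to 23.5). The second transcript made up 14.4% of the gene in controls, 6.44% at 100 pM, 11.2% at 10 nM and 29.0% at 1 µM. In the herbicide groups, where CEMIP did not pass, its share ran from 0.172% at Roundup to 22.4% at 0.1 g/L glyphosate. The split of reads between such overlapping transcripts is an estimate, and these transcript values were not tested.

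CEMIP was also set against the other genes whose products cut hyaluronan, within each library, which removes any scaling that those genes share. This measure and the other shares given here were chosen with the values already seen, and 40 exact tests of shares were run in all, unadjusted. CEMIP made up 17.9% ± 2.35 of the summed FPKM of CEMIP, TMEM2, HYAL1, HYAL2 and HYAL3 in controls (14.9% to 20.2%). The share was 21.7% ± 5.44 at 100 pM (exact permutation p = 0.198), 37.7% ± 11.3 at 10 nM (23.4% to 48.5%) and 50.4% ± 1.91 at 1 µM (48.3% to 52.7%). The shares at 10 nM and 1 µM did not overlap the controls (both exact permutation p = 0.00794), and 10 nM replicate 3 no longer lay among them. TMEM2, a cell surface hyaluronidase, had 34.9 ± 9.40 FPKM in controls and 32.7 ± 9.70 at 1 µM (log2 difference -0.10, limma adjusted p = 0.866). HYAL1, a lysosomal hyaluronidase, had 19.2 ± 4.66 and 11.5 ± 3.84 FPKM (-0.72, limma adjusted p = 0.262). HYAL2, a membrane-anchored hyaluronidase, had 3.46 ± 0.934 and 4.88 ± 1.53 FPKM.

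The synthetic side of hyaluronan metabolism was expressed at a low level. HAS2 (chr8:121612116-121641390, minus strand) did not exceed 0.047 FPKM in any library, so no fold is given. It was above 0 in 5 of 5 control libraries and in 2 to 4 of 5 in each of the 7 exposed groups. HAS1 averaged 0.0532 FPKM in controls, and HAS3, at 1.02 ± 0.329 FPKM in controls and 0.940 ± 0.223 at 1 µM, was the most abundant hyaluronan synthase. UGDH, which supplies the UDP-glucuronate that these enzymes use, had 173 ± 44.9 FPKM in controls and 100.5 ± 39.5 at 1 µM (log2 difference -0.83, limma adjusted p = 0.202).

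CD44 (chr11:35138870-35232402, plus strand), the main cell surface receptor for hyaluronan, gave 85.5, 73.03, 57.2, 53.2 and 34.1 FPKM in the control libraries. At 1 µM PCB 126 it gave 14.3, 105, 78.5, 58.3 and 52.7 FPKM, so both the lowest and the highest value of these 2 groups were at 1 µM. The log2 difference was -0.16 with a wide interval (-0.96 to 0.65, limma adjusted p = 0.861), and no difference was detectable at this spread. Replicate 1 at 1 µM, a multiply aligned library, was the lowest of its group for CD44, CEMIP, GPC6, GPC4, SDC1, SDC2 and LUM. Without it the CD44 difference changed sign, to 0.29 (limma adjusted p = 0.998), and it was also above 0 without all multiply aligned libraries (0.25). CEMIP and GPC6 kept their calls without replicate 1.

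GPC6 (chr13:93226842-94407401, plus strand) encodes glypican 6, a surface heparan sulfate proteoglycan known for its part in Hedgehog signalling during bone growth. Its level fell with the dose of PCB 126. The control libraries gave 8.77, 9.20, 8.88, 7.02 and 4.99 FPKM. At 100 pM they gave 6.16, 6.93, 8.09, 8.38 and 5.04 FPKM, inside the control range. At 10 nM the values were 4.72, 4.81, 2.91, 6.68 and 2.13 FPKM, of which 4 lay below every control. At 1 µM they were 1.11, 3.32, 2.94, 3.49 and 2.06 FPKM. All lay below the lowest control, a separation seen, in either direction, in 229 of 9755 genes (2.35%). The means were 7.77 ± 1.77, 6.92 ± 1.38, 4.25 ± 1.78 and 2.58 ± 0.991 FPKM.

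GPC6 was lower by 1.32 on the log2(FPKM + 1) scale at 1 µM (difference -1.32, SE 0.27, 95% interval -1.87 to -0.76, limma adjusted p = 0.00669, exact permutation p = 0.00794). At 10 nM the difference was -0.78 (-1.34 to -0.23, limma adjusted p = 0.570, exact permutation p = 0.0159), and at 100 pM -0.14 (limma adjusted p = 1). Between doses, the step from 100 pM to 10 nM was -0.65 (exact permutation p = 0.0397) and that from 10 nM to 1 µM was -0.53 (exact permutation p = 0.127). The trend was -0.46 per dose step (SE 0.0855, limma adjusted p = 0.00187). Without the multiply aligned libraries the 1 µM difference was -1.15 (limma adjusted p = 0.00099). ENST00000377047, with 9 exons, held 92.1% of the gene's FPKM. In bulk RNA, fewer cells that express a gene and less of its RNA per cell cannot be told apart, for GPC6 as for every gene here.

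Within the glypican family GPC1 dominated and GPC6 lost share. The 6 glypicans summed to 108.5 ± 30.7 FPKM in controls and 87.3 ± 16.1 at 1 µM, of which GPC1 made up 88.7% ± 1.21 and 93.1% ± 1.71. GPC6 made up 7.30% ± 0.768 in controls (6.59% to 8.31%), 6.45% ± 0.486 at 100 pM (exact permutation p = 0.0873), 5.00% ± 1.05 at 10 nM (3.50% to 6.11%) and 2.97% ± 0.981 at 1 µM (1.28% to 3.59%). The 10 nM and 1 µM shares did not overlap the control shares (both exact permutation p = 0.00794).

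GPC1 itself (chr2:240435671-240468078, plus strand), a glypican that binds fibroblast growth factors, had 96.8, 120.02, 121, 92.2 and 52.5 FPKM in controls. At 1 µM it had 83.5, 85.5, 92.7, 89.5 and 55.02 FPKM, overlapping the controls (-0.21, 95% interval -0.78 to 0.36, limma adjusted p = 0.719). GPC4 (chrX:133300103-133415490, minus strand) was too low and even for the variance filter. It had 4.36, 4.57, 3.91, 3.22 and 2.24 FPKM in controls and 1.54, 2.77, 2.90, 3.28 and 2.17 at 1 µM (-0.40, exact permutation p = 0.0794). GPC3 (chrX:133535745-133985895, minus strand), an oncofetal glypican used as a marker of hepatocellular carcinoma, was listed above 0 in 4 of 40 libraries and did not exceed 0.0283 FPKM.

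**Figure D3:**
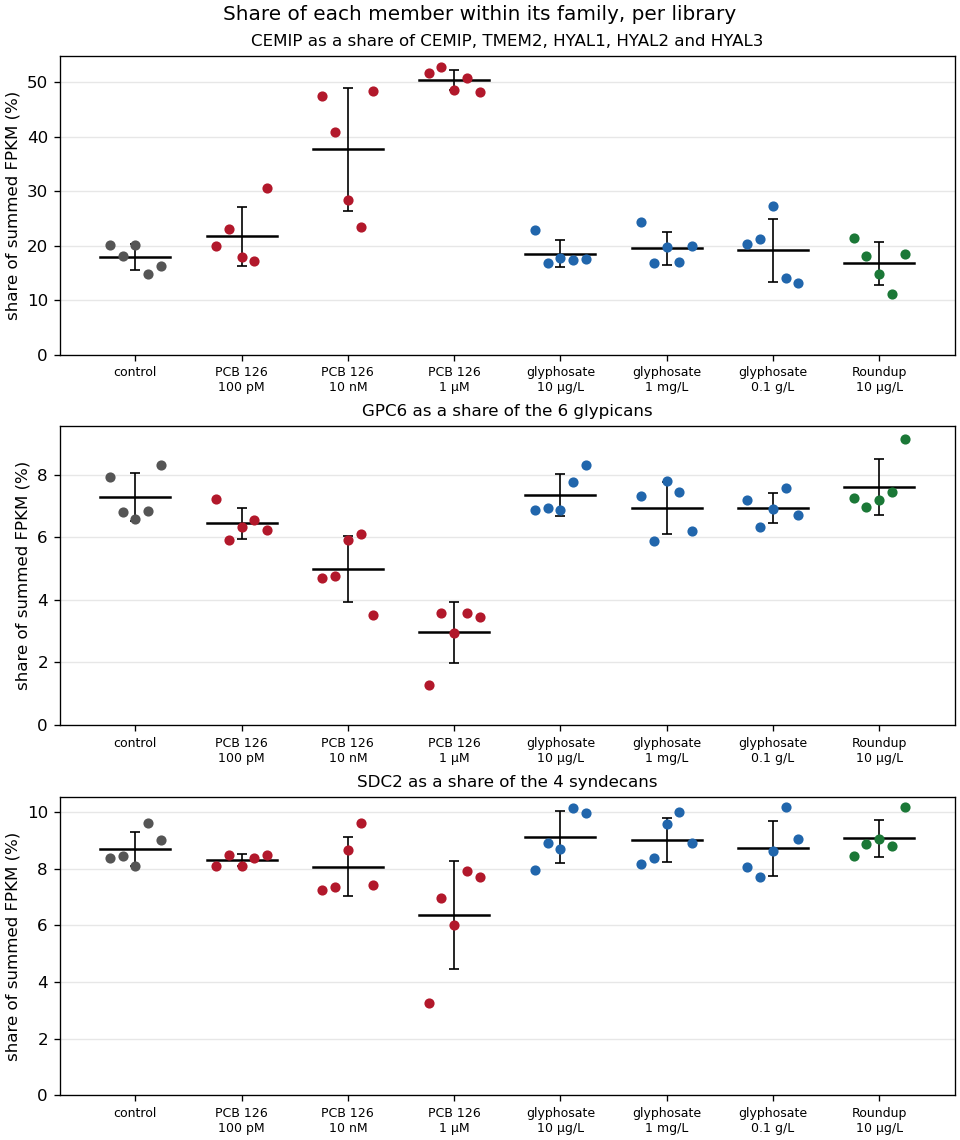
Share (%, from 0) of the summed FPKM held by CEMIP among 5 hyaluronan-cutting genes, by GPC6 among 6 glypicans and by SDC2 among 4 syndecans, per library, with group mean and SD. Shares at 1 µM PCB 126 were 50.4% for CEMIP, 2.97% for GPC6 and 6.36% for SDC2, each outside the control range.

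SDC1 and SDC2 were lower on average at 1 µM, but neither passed. SDC1 (chr2:20200797-20225433, minus strand), the main epithelial syndecan, had 120.5, 128, 120.1, 114 and 71.4 FPKM in controls and 53.7, 84.2, 81.6, 97.6 and 65.3 FPKM at 1 µM. Only control replicate 5 lay within the range of the exposed libraries, and the difference was -0.53 (95% interval -1.07 to 0.01, limma adjusted p = 0.383, exact permutation p = 0.0397). SDC2 (chr8:96493351-96611780, plus strand), a syndecan typical of mesenchymal cells and liver, had 24.2, 24.8, 21.9, 22.3 and 13.7 FPKM in controls and 5.85, 15.1, 12.6, 18.5 and 11.4 FPKM at 1 µM. Control replicate 5 again lay among the exposed values (-0.76, 95% interval -1.35 to -0.18, limma adjusted p = 0.208, exact permutation p = 0.0238). Without control replicate 5 the SDC2 trend passed (-0.32 per dose step, limma adjusted p = 0.0355), and with it the trend was -0.27 (limma adjusted p = 0.0982).

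The 4 syndecans summed to 248 ± 58.6 FPKM in controls and 198 ± 33.9 at 1 µM. SDC2 made up 8.70% ± 0.598 of that sum in controls (8.10% to 9.60%) and 6.36% ± 1.90 at 1 µM (3.24% to 7.92%), without overlap (exact permutation p = 0.00794). SDC1 went from 45.0% ± 2.91 to 38.7% ± 5.44 (exact permutation p = 0.0397). In SDC1 the 5-exon transcript ENST00000254351 made up 81.2% of the gene in controls and 67.9% at 1 µM, and the 6-exon transcript ENST00000381150 made up 17.7% and 31.3%. The 6-exon transcript had 19.6 ± 10.1 FPKM in controls and 23.9 ± 5.63 at 1 µM, while the 5-exon one had 89.9 ± 24.9 and 51.9 ± 15.6 FPKM, so the lower gene sum lay in the latter. These transcript values were not tested.

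LUM (chr12:91102629-91111831, minus strand) encodes lumican, a keratan sulfate proteoglycan of the small leucine-rich family that regulates collagen fibril assembly. Its level was higher on average at each dose of PCB 126 but did not pass the test. The control libraries gave 58.3, 59.8, 53.4, 53.8 and 25.7 FPKM. At 100 pM the values were 66.9, 64.4, 57.5, 63.8 and 67.2 FPKM, of which 4 lay above every control. At 10 nM they were 138, 112, 41.5, 104.5 and 93.3 FPKM, with 4 libraries above every control. At 1 µM they were 35.8, 168, 155, 144 and 71.4 FPKM, with replicate 1 inside the control range and the other 4 above it.

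The LUM differences were 0.40 at 100 pM (limma adjusted p = 1, exact permutation p = 0.0238), 0.91 at 10 nM (limma adjusted p = 0.824, exact permutation p = 0.0397) and 1.03 at 1 µM (95% interval 0.28 to 1.78, limma adjusted p = 0.180, exact permutation p = 0.0873). The trend was 0.36 per dose step (limma adjusted p = 0.0890). Replicate 1 decided the 1 µM call: without it the difference was 1.39 (limma adjusted p = 0.0183). Without all multiply aligned libraries it was 1.45 (limma adjusted p = 1.77e-05). LUM held 77.4% ± 1.64 of the summed FPKM of 17 small leucine-rich proteoglycan genes in controls and 78.6% ± 4.34 at 1 µM (exact permutation p = 0.595).

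Other genes of the family are its neighbours on chromosome 12, where EPYC (90963679 to 91005026), KERA (91050491 to 91057983), LUM and DCN (91140484 to 91183123) follow each other. DCN and EPYC are described after their values were seen. DCN, which encodes the collagen-binding decorin, gave 8.79, 3.85, 3.84, 5.24 and 3.04 FPKM in controls and 10.3, 12.1, 11.96, 12.8 and 6.47 at 1 µM (1.02, SE 0.30, limma adjusted p = 0.0886, exact permutation p = 0.0159). Only replicate 5 at 1 µM lay among the control values of DCN. EPYC, which encodes the dermatan sulfate proteoglycan epiphycan, gave 6.14, 8.00, 7.20, 5.98 and 2.39 FPKM in controls and 25.9, 25.4, 10.1, 20.4 and 10.6 at 10 nM, without overlap, as in 0.513% of all genes (1.46, limma adjusted p = 0.180, exact permutation p = 0.00794). At 1 µM EPYC averaged 14.0 ± 7.14 FPKM (0.97, limma adjusted p = 0.245). KERA stayed at or below 0.086 FPKM in every library. LUM, DCN and EPYC were the 3 genes tested of the 17, and all 3 lay above 0 at 1 µM, with 0 called. DCN is also on the list of 15 mesenchymal markers, of which 8 were tested and 2 passed at 1 µM, both lower: the collagen COL3A1 (-3.07, limma adjusted p = 2.29e-05) and the matrix protein POSTN (-1.85, limma adjusted p = 0.00942). That list's summed level ran from 31.9 to 66.4 FPKM in controls and from 21.9 to 44.003 at 1 µM, with PDGFRA, DES and COL1A2 under 0.1 in both groups.

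No member passed a test with glyphosate or Roundup. In each of the 4 herbicide groups limma called 0 of 9533 genes (0%), so 0 members. The smallest adjusted p of a member was 0.902, at Roundup. At an unadjusted p under 0.05, no member passed in any of the 4, beside 95 genes (0.997%) at 10 µg/L glyphosate, 125 (1.31%) at 1 mg/L, 84 (0.881%) at 0.1 g/L and 165 (1.73%) at Roundup. CEMIP averaged 13.6 ± 4.87, 15.0 ± 3.18 and 14.3 ± 6.49 FPKM at the 3 rising glyphosate doses and 11.3 ± 5.66 at Roundup. GPC6 averaged 7.15 ± 1.87, 7.76 ± 0.849, 7.18 ± 1.77 and 6.76 ± 1.92 FPKM in the same order. LUM averaged 49.3 ± 12.5, 58.1 ± 5.08, 57.5 ± 19.5 and 44.04 ± 17.3 FPKM.

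The intervals bound what could have been missed. At 0.1 g/L glyphosate the CEMIP difference was 0.09 (95% interval -0.56 to 0.73), that of GPC6 -0.11 (-0.58 to 0.37) and that of LUM 0.18 (-0.43 to 0.79). At Roundup they were -0.26 (-0.91 to 0.38), -0.19 (-0.66 to 0.29) and -0.24 (-0.85 to 0.37). All 7 members tested were below control at Roundup, with a median of -0.24 beside -0.18 for all genes, and all 7 were above control at 1 mg/L glyphosate, with a median of 0.16 beside 0.14. Roundup was compared with glyphosate at the same 10 µg/L, and no member passed (smallest limma adjusted p = 0.974, 0% of genes called, and 0 members beside 1.27% of genes at an unadjusted p under 0.05). The largest difference was that of CEMIP, -0.31 (95% interval -0.95 to 0.34). The F-test over the 4 herbicide groups and the trend over glyphosate doses also called 0 genes (0%), with 1.36% and 1.02% of genes but 0 members at an unadjusted p under 0.05. The PCB 126 and herbicide comparisons share their 5 control libraries.

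The pathway around the members was followed in 145 further genes of proteoglycan cores, hyaluronan metabolism and binding, and sugar chain synthesis and breakdown. The set also held the study's glycosaminoglycan category, which the study drew from these same libraries. AP2A1, GALNT5 and FUCA1 were included through that category alone. Of the 145 genes, 76 entered the PCB 126 fit. At 1 µM 1 of them rose and 2 fell, beside 1.87% of all genes called. SRGN, the proteoglycan of secretory granules, went from 5.06 to 11.4 FPKM (log2 difference 1.07, limma adjusted p = 0.0278). SPOCK3, a testican of the extracellular matrix, went from 4.65 to 1.18 FPKM (-1.41, limma adjusted p = 0.00268). ITIH2, a heavy chain that the liver secretes and that becomes bound to hyaluronan, went from 338 to 149.99 FPKM (-1.27, limma adjusted p = 0.0157). SPOCK3 passed in all 20 fits that left out 1 library, ITIH2 in 19 and SRGN in 16, and in 15, 12 and 12 of 15 other alternatives. The call of ITIH2 was lost without control replicate 2 (adjusted p = 0.0580), and that of SRGN without control replicate 3 or 4 or 1 µM replicate 2 or 3 (adjusted p up to 0.0735).

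Over the dose steps 3 of the 76 rose and 4 fell, beside 0.882% and 2.82% of all genes. The sulfate transporter SLC26A2 (0.34 per step, limma adjusted p = 0.0275) and the lysosomal fucosidase FUCA1 (0.30, adjusted p = 0.0465) rose with SRGN (0.36, adjusted p = 0.0141). FUCA1 was followed only because the study had listed it from these same libraries, so its place in this count is not independent. The hyaluronan receptor HMMR, also a mitotic spindle protein (-0.29, adjusted p = 0.0405), and the lysosomal glucuronidase GUSB (-0.29, adjusted p = 0.0489) fell with SPOCK3 and ITIH2. FUCA1 and GUSB passed in 4 of 20 fits without 1 library each, HMMR in 8 and SLC26A2 in 16, so the first 3 sat at the threshold. The enzyme lists gave 0 calls at 1 µM, with a median of 0.06 over the 15 genes tested for the linker and heparan sulfate, -0.26 over 9 for chondroitin and dermatan sulfate, -0.44 over 14 for sugar precursors and -0.22 over 14 for breakdown. With glyphosate or Roundup 0 of 75 pathway genes passed in any comparison.

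**Figure D4:**
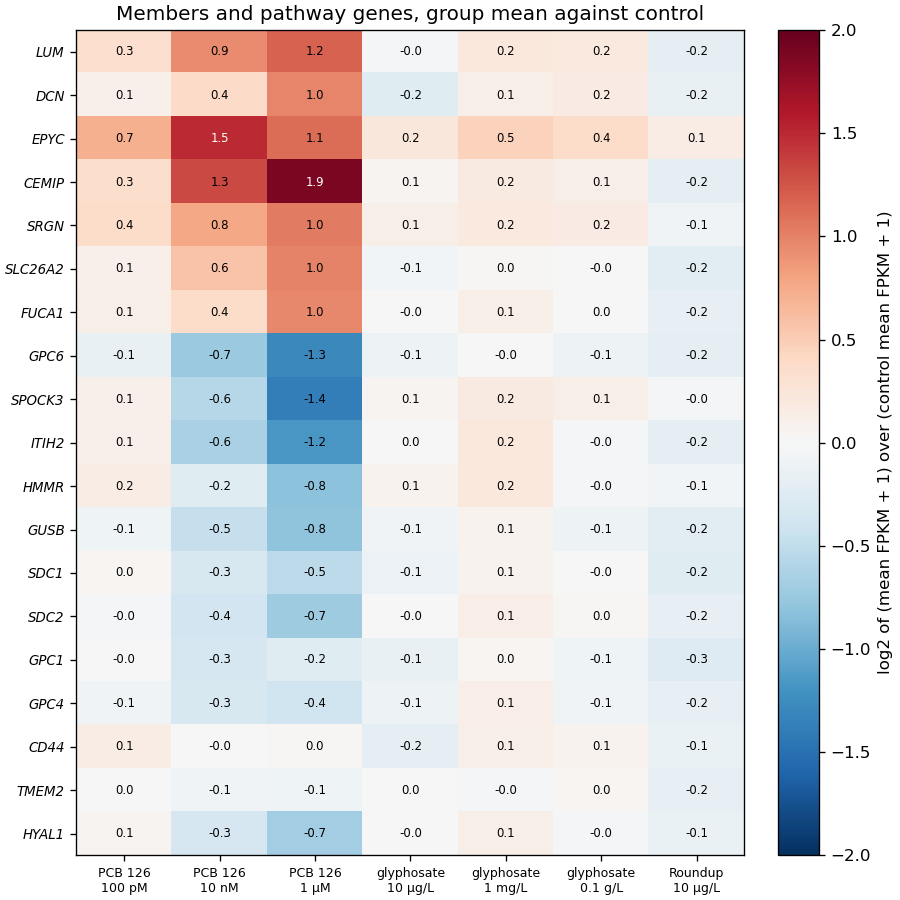
Log2 ratio of group mean FPKM + 1 to control mean FPKM + 1 for members and pathway genes (rows) in the 7 exposed groups (columns); red is higher and blue lower, and the printed value is the ratio. Colour at 1 µM PCB 126 is deepest for CEMIP in red and GPC6, SPOCK3 and ITIH2 in blue, and the herbicide columns are pale.

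Some hepatocyte and biliary markers moved at 1 µM PCB 126 as well, and their part in the results above was not tested. The summed level of 12 hepatocyte markers ran from 14798 to 23328 FPKM in controls and from 6127 to 14808 at 1 µM, with FGB (-1.37) and TTR (-1.62) lower and TAT (1.48) higher by limma. The 10 biliary and progenitor markers ran from 283 to 543 and from 167 to 289 FPKM, with ANXA13 lower (-1.26). Endothelial markers summed to at most 5.27 FPKM, with 8 of 10 under 0.1 in both groups, VWF, CDH5 and STAB2 among them. Of the 10, 1 averaged 1 FPKM or more in at least 1 group. KDR, on the same list, fell over the PCB 126 dose steps (-0.34 per step, limma adjusted p = 0.0210). Leukocyte markers summed to 4.38 to 14.3 FPKM in controls and 5.59 to 10.5 at 1 µM, with PTPRC, CD163, C1QA, C1QB, CD3E and CD79A under 0.1 in both. Of these 10 leukocyte and macrophage markers, 3 averaged 1 FPKM or more in at least 1 group.

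The genes whose log2 level was most like that of a member over the 40 libraries, among 9755 searched, were SLC2A1, PARD6B and UGCG for CEMIP (Pearson r 0.961, 0.956 and 0.949). They were PLA1A, RORB and FOXA1 for GPC6 (0.975, 0.971 and 0.970) and MCCC1, PDP1 and PAK2 for LUM (0.948, 0.947 and 0.947). These values are descriptive, because the libraries share exposures, scaling and the multiply aligned subset.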

How the data were processed

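The authors sequenced rRNA-depleted, strand-specific libraries from HepaRG cells, aligned reads to GRCh38 with HISAT2 and quantified transcripts with StringTie; tool versions are not given in the sources used here. The deposited values are FPKM per transcript, in one table for PCB 126 (20 libraries) and one for glyphosate and Roundup (25 libraries), each of 234960 transcripts. FPKM normalises to depth and length, so counts cannot be read from the values themselves and a few very abundant genes can move the rest. The paper reports read numbers, which differed between samples and were not used here. In 9 deposited columns the unit is recorded as a score only because a few values are below 0, which FPKM cannot take. The 4 and 6 such values per table were set to 0, the columns were used as FPKM, and FPKM summed per gene name. Genes with FPKM variance above 1 (9755 and 9533) were fitted on log2(FPKM + 1), 1 fit per table without covariates, with limma 3.58.1 in R 4.3.3, after the study's filter; Benjamini-Hochberg adjustment covered all genes, at 0.05. Tests were tried on simulated data first. Python 3.11.15 with pandas 2.3.3 and numpy 2.4.6 did the rest. Named genes are the 10 members, pathway genes past 0.05 (at most 12 per comparison), the 3 most like genes, exposure genes, and transcripts with 10% or more of a member's FPKM; other names, and the shares, were picked once values were known. The members and lists were chosen with earlier results of these data known, among them the study's glycosaminoglycan category, which was itself 1 of the lists. The percentage of multiply aligned read pairs came from the study's alignment summary. Promoters are RefSeq windows, present for 6 of 10 members. The level of 1 marker gene is not reported here.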

Additional observations from a re-analysis of the deposited data

Results flagged for a closer look

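Assembled transcripts without a gene name at the CEMIP locus were not part of the gene sums. MSTRG.14033.1, with 5 exons, averaged 4.11 FPKM at 1 µM PCB 126 (2.19 to 5.98), above the highest of the 5 controls (0.137 to 1.38). MSTRG.14033.5, with 29 exons, averaged 6.09 FPKM at 1 µM (0.0113 to 12.3) and 3.23 FPKM at 0.1 g/L glyphosate (1.07 to 6.20), whereas no control exceeded 0.00754 FPKM. It was also listed above 0 in 4 of 5 libraries at 10 nM (mean 1.85) and 100 pM (mean 2.77), in 5 of 5 at Roundup (mean 1.11, highest 2.80), in 2 of 5 at 1 mg/L glyphosate (mean 0.367) and in 0 of 5 at 10 µg/L glyphosate. These differences were not tested. Summing FPKM per assembled locus, which includes both, left CEMIP called at 1 µM and made it called at 10 nM. Unnamed transcripts at the CD44 and GPC4 loci were outside the gene sums as well. At CD44, MSTRG.6358.4 averaged 2.86 FPKM in controls and 8.01 at 1 µM (2.91 to 18.7), and MSTRG.6358.3 averaged 2.73 and 3.61. These 2 transcripts were not tested singly, and CD44 was not called at 1 µM when FPKM was summed per locus.

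Single libraries stood apart from the other 4 of their group for 5 member levels among 64 groups of 5 examined (Dixon's ratio, critical value 0.71), where chance flags about 1 in 20. In control replicate 5, SDC1 was 71.4, SDC2 13.7 and LUM 25.7 FPKM. GPC1 was 55.02 FPKM in replicate 5 at 1 µM PCB 126, and SDC1 was 68.1 FPKM in replicate 2 at 0.1 g/L glyphosate. The latter stood apart on the log2(FPKM + 1) scale but not on FPKM itself. All 5 values were the lowest of their group, and the 3 libraries are among the 9 with more than 30% multiply aligned read pairs.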

How the results depend on the processing

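CEMIP and GPC6 were called at 1 µM PCB 126 and in the trend under every alternative and every fit that left out 1 library: at 1 µM CEMIP ranged from 1.61 to 2.11 and GPC6 from -1.62 to -1.07. The count of members called grew with the scaling or weighting of libraries. At 1 µM it was 4 with 75th-percentile scaling and 5 with quantile normalization, array weights or the multiply aligned percentage as a covariate, against 2. The count also took in LUM in further alternatives, the fit without the multiply aligned libraries among them. At 10 nM, against 0, it was 1 with 75th-percentile scaling, 1 per assembled locus, 1 (LUM) without the multiply aligned libraries, 2 with the covariate, 3 with array weights and 3 with quantile normalization. The F-test across PCB 126 groups, against 2, gave 4 with array weights, 4 with quantile normalization, 1 with the most abundant transcript per gene and 0 without a filter on low values. The trend, against 2, gave 5 with 75th-percentile scaling, array weights, the covariate or quantile normalization, and 4 with all 40 libraries in one fit or summing per locus. The cause of these changes was not tested. The same settings raised the count over all genes at 1 µM from 182 to 592 (75th percentile), 656 (covariate), 946 (array weights) and 1123 (quantile), and moved the all-gene median from -0.26 to -0.12, -0.05 and -0.04 for the 75th percentile, covariate and quantile. The split of all genes was 63 higher and 119 lower, against 510 and 613 with quantile normalization 304 and 352 with the covariate, 81 and 92 without a filter, 83 and 274 with the block of library numbers, and 271 and 227 in the linear model with a library-size term, where higher calls were the majority. The CD44 difference at 1 µM ranged from -0.73 to 0.30 over alternatives and was never called. LUM was called at 1 µM in 7 of 15 such alternatives, SDC2 in 4, SDC1 in 3, and CD44 and GPC1 in 0.

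Leaving out 1 library gave 2 to 3 members at 1 µM (LUM added without 1 µM replicate 1), 0 to 1 at 10 nM (CEMIP added without 10 nM replicate 3), 2 to 3 in the trend (SDC2 added without control replicate 5, LUM without 10 nM replicate 3 or 1 µM replicate 1) and 1 to 2 across groups (GPC6 lost without 1 µM replicate 5). All 271 counts run for glyphosate and Roundup were 0. Array weights did not converge in the glyphosate table and were not run there. The labels give no replicate numbers. Taking the run of library numbers as a replicate block gave 2 members at 1 µM, 0 at 10 nM and 3 in the trend (SDC2 added). Deviations correlated only between -0.167 and 0.368 within runs. Single measures did follow the runs, however. The SDC1 share of the syndecans was lowest in the first run in every group. It was 41.6% there and 49.0% in the fourth run in controls, and 41.4% and 48.5% at Roundup. The main fit and the exact tests took the libraries as unpaired. Counting error at the low FPKM of GPC6, GPC4, HAS2 and GPC3 was not estimated, although the paper reports read numbers that differed between samples.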

Other observations

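CD44 was quantified mostly as ENST00000433892, with 12 exons (66.4% of its FPKM over all libraries), and ENST00000263398, with 9 exons (11.6%). LUM's share of the 17 small leucine-rich proteoglycan genes was 74.4% ± 1.42 (SD, n = 5) at Roundup against 77.4% ± 1.64 in controls, with an unadjusted exact permutation p of 0.0159 among 40 such tests of shares. GPC5 averaged 0.297 FPKM in controls and 0.651 at 1 µM PCB 126.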
